A study of Mus musculus with 5 samples.

Results

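The expression of 10 genes that end the light response of photoreceptors, or set its calcium feedback, was examined in retinas of mice with form-deprivation myopia (FDM). The genes were chosen by name, and each was found in a single row of the 33636 genes in the table. They comprise the calcium sensors Rcvrn, Guca1a and Guca1b, the guanylate cyclases Gucy2e and Gucy2f, the GTPase complex genes Rgs9, Rgs9bp and Gnb5, the visual pigment kinase Grk1 and the calcium exchanger Slc24a1. All 10 passed the filter on low counts, with 1332 counts in the lowest library of the lowest gene (Gucy2f). The retinas came from wild-type male C57BL/6J mice, a common inbred strain, aged 42 postnatal days. A diffuser goggle on the head had blurred vision of the right eye for 2 weeks (FDM), and the left eye of the same animals stayed uncovered (control). The libraries numbered 5 in all, FDM 1 and FDM 3 from deprived eyes and Control 1, Control 2 and Control 3 from fellow eyes. By the mouse numbers of the paper and of the count table, FDM 1 and Control 1 were the eyes of mouse 1, and FDM 3 and Control 3 those of mouse 3. The sample labels number the second FDM library 2 instead. Control 2 had no partner, since the authors left out its FDM library for read duplication. The fellow eye is not an untreated animal, and because the goggle was always on the right, deprivation and the side of the eye cannot be told apart.

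In the dark, photoreceptors make cGMP, which holds open the channels that let in sodium and calcium. Light activates the visual pigment, then the G protein transducin, then a phosphodiesterase that destroys cGMP, so that the channels close and calcium falls. Recovery needs each step to be switched off: Grk1 and arrestin silence the pigment, the complex of Rgs9, Gnb5 and Rgs9bp speeds up GTP hydrolysis by transducin, and the falling calcium, read by recoverin and the guanylate cyclase activating proteins, releases the kinase and the cyclases from restraint. These steps set how long a flash is seen and how the cell adapts to steady light. In rods the exchanger Slc24a1 removes the calcium.

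Total counts ran from 40599047 to 56534931 per library, and 3 counts, taken as the floor of detection, corresponded to 0.0531 to 0.0739 CPM by total, which covers counting error only. The levels below are CPM after a further scaling by edgeR's TMM factors. The rod transducin gene Gnat1 stood between 10085 CPM in Control 2 and 13719 CPM in Control 1, so that rods were well represented in each library. Libraries also differed in other tissue: the summed CPM of 7 lens genes was 1957 in FDM 3 and 2.38 to 17.9 in the other libraries. The summed CPM of 10 pigment epithelium genes was 271 in Control 2 and 310 in Control 3 against 70.1 to 81.2 in the other libraries, and 5 muscle genes summed to 55.8 CPM in Control 3 against 9.24 to 10.7. In the statistics below, edgeR is a test of counts over all genes with p adjusted by Benjamini-Hochberg, SE is the standard error, and fold changes are FDM over control. The part of lens, pigment epithelium or muscle RNA in the differences below was not tested.

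The promoters show where the members share sequence that the choice by name did not use. Windows from 250 bases before to 50 bases after the start were taken from RefSeq (build GRCm38.p6) and matched 7 of the 10 genes by symbol. Rcvrn, Guca1b and Rgs9bp had no window. The letters TAATCC, the core bound by the photoreceptor homeodomain factor Crx, were searched on both strands, so that GGATTA also counts. They stood in 4 of the 7 windows, Guca1a, Gucy2e, Gucy2f and Gnb5, against 7.06% of the 32851 windows of the same length. The first base of the match lay 57 bases before the start of Guca1a, 42 before Gucy2e, 84 and 59 before Gucy2f and 6 before Gnb5. The letters TGCTGA, or TCAGCA on the other strand, part of the element bound by the rod factor Nrl, stood in the windows of Rgs9 and Grk1, against 19.5% of all windows, and overlapped no TAATCC match. A match describes these letters and is not a binding site. The 200 bases before the start are printed for the genes with a TAATCC match and for Rgs9, the gene with the smallest p between the eyes of a mouse. They read 5′ to 3′ on the strand of the gene, and capitals mark each match to TAATCC or GGATTA within them.
Guca1a, chr17:47400607-47400806, minus strand: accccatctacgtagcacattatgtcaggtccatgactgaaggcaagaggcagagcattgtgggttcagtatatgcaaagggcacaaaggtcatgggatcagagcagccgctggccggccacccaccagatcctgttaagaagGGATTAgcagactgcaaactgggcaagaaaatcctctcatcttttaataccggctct
Gucy2e, chr11:69237023-69237222, minus strand: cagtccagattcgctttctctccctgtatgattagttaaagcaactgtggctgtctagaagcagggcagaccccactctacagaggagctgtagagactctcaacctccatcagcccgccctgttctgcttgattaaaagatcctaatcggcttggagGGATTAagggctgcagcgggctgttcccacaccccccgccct
Gucy2f, chrX:142196937-142197136, minus strand: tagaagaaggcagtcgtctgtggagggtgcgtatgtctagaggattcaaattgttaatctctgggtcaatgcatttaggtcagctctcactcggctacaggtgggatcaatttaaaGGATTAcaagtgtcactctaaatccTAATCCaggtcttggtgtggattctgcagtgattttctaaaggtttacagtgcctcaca
Gnb5, chr9:75306088-75306287, plus strand: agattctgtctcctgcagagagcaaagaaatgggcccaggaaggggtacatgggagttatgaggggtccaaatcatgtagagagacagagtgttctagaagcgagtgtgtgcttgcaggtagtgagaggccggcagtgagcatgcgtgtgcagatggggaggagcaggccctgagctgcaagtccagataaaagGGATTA
Rgs9, chr11:109298182-109298381, minus strand: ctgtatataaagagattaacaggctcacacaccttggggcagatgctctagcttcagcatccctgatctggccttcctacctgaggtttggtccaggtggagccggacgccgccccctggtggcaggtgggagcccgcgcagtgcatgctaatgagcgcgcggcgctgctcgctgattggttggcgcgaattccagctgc
Gucy2f held 2 matches on opposite strands, the only one of the 7 windows with more than 1. The window of Rgs9 lies wholly upstream of the gene as annotated in GENCODE M21.

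None of the calcium sensors passed the test over all 5 libraries, and their mean levels differed little. Rcvrn encodes recoverin, which holds Grk1 inactive while calcium is high (chromosome 11 of GRCm38, 67695326 to 67703333). It had 882 and 848 CPM in FDM 1 and 3, against 969, 717 and 920 in Control 1, 2 and 3. The FDM values lay within the control range, between a low Control 2 and the other controls. The means were 865 ± 23.7 CPM for FDM (SD, n = 2) and 868 ± 134 CPM for control (SD, n = 3), giving a log2 fold change of -0.01 with an SE of 0.14 (edgeR unadjusted p = 0.965, adjusted p = 1.0). Rcvrn lies inside Glp2r, a gene of the opposite strand, with 0 bases of shared exon.

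Guca1a and Guca1b encode guanylate cyclase activating proteins, which stimulate the cyclases once calcium has fallen. The genes converge on chromosome 17, Guca1b from 47385393 to 47392967 on the plus strand and Guca1a from 47394558 to 47400584 on the minus strand, with 1590 bases between them. Guca1a had 678 and 685 CPM in FDM 1 and 3, against 705, 700 and 746 in Control 1, 2 and 3. Both FDM libraries were below all controls, by a small margin. Its log2 fold change was -0.07 with an SE of 0.08 (edgeR unadjusted p = 0.398, adjusted p = 1.0). Guca1b had 1647 and 1498 CPM in FDM 1 and 3, against 1789, 1425 and 1558 in Control 1, 2 and 3. These groups overlapped, with Control 1 highest and Control 2 lowest, as for Rcvrn, and the log2 fold change was -0.02 with an SE of 0.12 (edgeR unadjusted p = 0.891).

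Of the cyclases that remake cGMP, neither passed the test, and Gucy2f varied most of all 10 genes. Gucy2e, expressed in rods and cones (chromosome 11, 69218117 to 69237036), had 868 and 791 CPM in FDM 1 and 3, against 927, 796 and 746 in Control 1, 2 and 3. The FDM values fell inside the control range, and the log2 fold change was 0.01 with an SE of 0.11 (edgeR unadjusted p = 0.920). Gucy2f, the second photoreceptor cyclase (chromosome X, 142081160 to 142196931), had 53.2 and 50.3 CPM in FDM 1 and 3, against 33.4, 83.6 and 47.0 in Control 1, 2 and 3. The control libraries spanned the FDM values on both sides and differed 2.51-fold among themselves. The log2 fold change was -0.08 with a 95% interval of -0.86 to 0.70 (edgeR unadjusted p = 0.815), a range of 0.549-fold to 1.63-fold, so smaller changes of this gene were not detectable here.

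In the transducin GTPase complex, Rgs9 and Rgs9bp ranked the 5 libraries in the same order, while Gnb5 was nearly flat. Rgs9, the catalytic subunit (chromosome 11, 109225355 to 109298129), had 438 and 355 CPM in FDM 1 and 3, against 326, 467 and 311 in Control 1, 2 and 3. Both FDM libraries were above Control 1 and Control 3 and below Control 2. Its log2 fold change was 0.11 with an SE of 0.19 (edgeR unadjusted p = 0.582). The counts sum the isoforms of the gene, so the retinal and the brain form of Rgs9 were not separated.

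Rgs9bp, the membrane anchor of the complex (chromosome 7, 35578993 to 35585582), had 1096 and 983 CPM in FDM 1 and 3, against 947, 1110 and 868 in Control 1, 2 and 3. As for Rgs9, Control 2 was highest and Control 3 lowest, and the log2 fold change was 0.09 with an SE of 0.12 (edgeR unadjusted p = 0.473). Gnb5, the G protein beta subunit that stabilises Rgs9 (chromosome 9, 75306288 to 75345876), had 748 and 731 CPM in FDM 1 and 3, against 781, 769 and 766 in Control 1, 2 and 3. It was the steadiest of the 10 genes among controls, and both FDM libraries were below them. The log2 fold change was -0.06 with an SE of 0.08 (edgeR unadjusted p = 0.458). Exons of Gnb5 overlap those of the antisense gene Gm19531 by 248 bases, and the library kit did not keep strand, so reads from this stretch cannot be told apart.

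Grk1, the kinase that phosphorylates light-activated pigment (chromosome 8, 13405081 to 13421951), had 2650 and 2433 CPM in FDM 1 and 3, against 2555, 2641 and 2388 in Control 1, 2 and 3. The FDM values covered nearly the whole control range. Its log2 fold change was 0.01 with an SE of 0.09 (95% interval -0.21 to 0.22, edgeR unadjusted p = 0.937). Slc24a1, the rod exchanger that trades calcium and potassium for sodium (chromosome 9, 64922861 to 64951607), had 1457 and 1347 CPM in FDM 1 and 3, against 1489, 1355 and 1307 in Control 1, 2 and 3. Here too the groups overlapped, and the log2 fold change was 0.02 with an SE of 0.10 (95% interval -0.20 to 0.24, edgeR unadjusted p = 0.846).

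**Figure D1:**
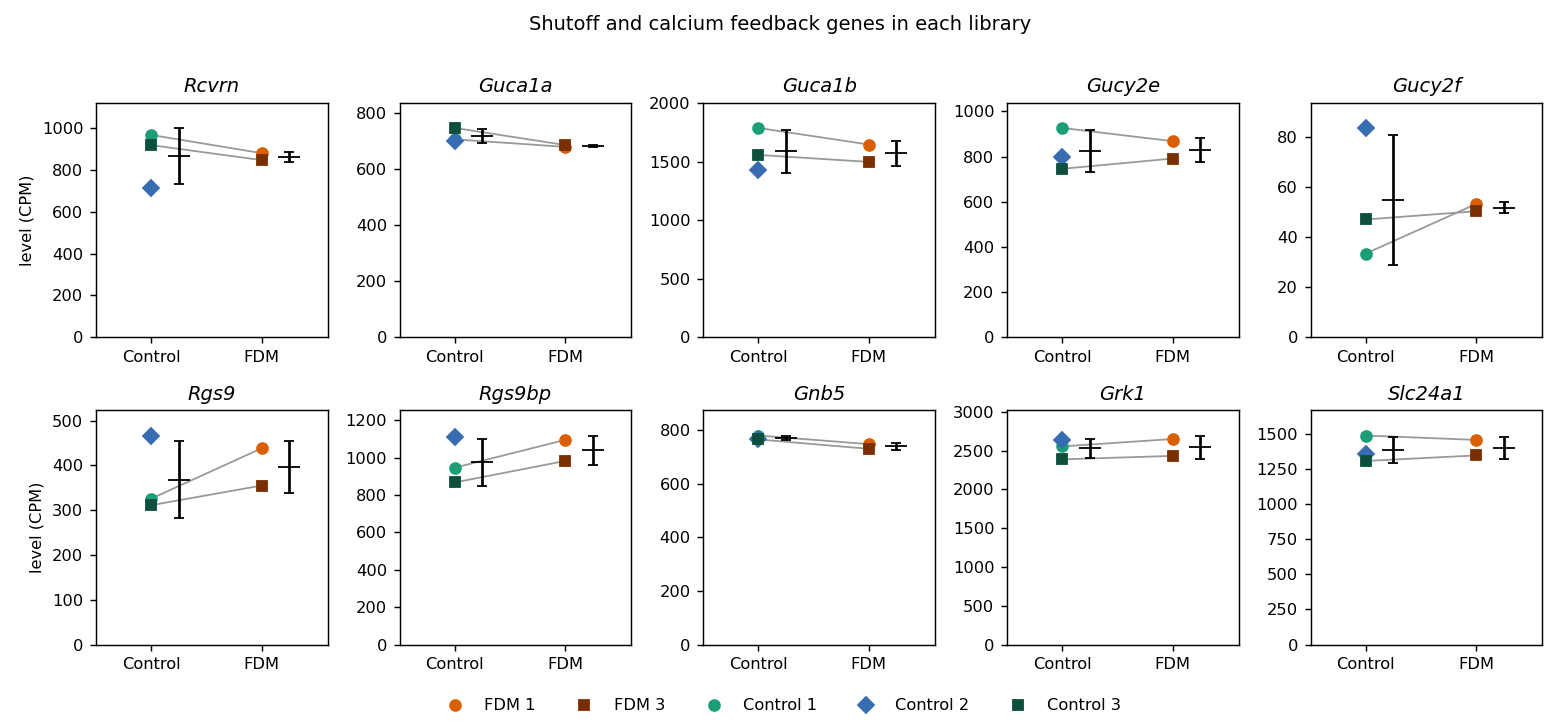
Level (CPM, from 0) of each of the 10 genes in the 3 control and 2 FDM libraries, 1 point per library, with the mean and SD of each group to the right of its points and grey lines joining the eyes of mouse 1 and of mouse 3. For Rgs9 and Rgs9bp both lines rise towards the FDM eye, while the unpaired Control 2 lies at the top; for Guca1a and Gnb5 both FDM points lie below all controls.

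Across all 5 libraries, 0 of the 10 genes had an unadjusted p under 0.05 in edgeR's quasi-likelihood test, against 1.61% of the 17432 genes tested. DESeq2 called 0 of the 10, against 0.987% of all genes. After Benjamini-Hochberg adjustment 0 of 10 and 0 of 17432 genes passed in edgeR, and 3 genes, none of them a member, passed in DESeq2. FDM and control libraries did not overlap for 2 of 10 members, Guca1a and Gnb5, against 10.6% of all genes tested. The median log2 fold change of the 10 genes was 0.00, beside -0.01 over all genes tested, and 5 genes had a positive and 5 a negative value. The widest interval was that of Gucy2f, and the narrowest was that of Gnb5, from -0.24 to 0.12. These are whole retinas, so fewer photoreceptors and less RNA per photoreceptor cannot be told apart.

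With the mouse fitted as a block, which compares the eyes of an animal with each other, 4 of the 10 genes passed the unadjusted threshold, against 7.23% of all genes tested, and 0 passed after adjustment, against 0.31%. Of these, 3 were higher in FDM eyes, against 3.57% of all genes, and 1 was lower, against 3.67%. Rgs9 was 1.35-fold higher in the FDM eye of mouse 1 and 1.14-fold higher in that of mouse 3, and its log2 fold change in the block fit was 0.31 with an SE of 0.06 (edgeR unadjusted p = 8.77e-04, adjusted p = 0.175). Rgs9bp was 1.16-fold and 1.13-fold higher, with a log2 fold change of 0.20 with an SE of 0.05 (edgeR unadjusted p = 0.00404, adjusted p = 0.416). Catalytic subunit and anchor of the complex were thus higher in the deprived eye of both animals, by more in mouse 1 for Rgs9. Gucy2f was 1.59-fold higher in mouse 1 and 1.07-fold higher in mouse 3, with a log2 fold change of 0.38 with an SE of 0.12 (edgeR unadjusted p = 0.00973, adjusted p = 0.561), with Control 1 its lowest library. Rcvrn differed the other way, with log2 differences of -0.14 and -0.12 and a log2 fold change of -0.13 with an SE of 0.05 (edgeR unadjusted p = 0.0330, adjusted p = 0.654).

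The other 6 genes did not pass in the block fit. Their log2 differences in mouse 1 and mouse 3 were -0.06 and -0.12 for Guca1a, -0.12 and -0.06 for Guca1b and -0.06 and -0.07 for Gnb5, all lower in the FDM eye. Grk1 differed by 0.05 and 0.03. Gucy2e (-0.09 and 0.09) and Slc24a1 (-0.03 and 0.04) had opposite signs in the mice. In all, 4 members were higher in the FDM eye of both mice, against 24.7% of all genes tested, and 4 were lower in both, against 30.3%. The median absolute log2 difference between eyes, over the 6943 genes above 30 CPM, was 0.07 in mouse 1 and 0.06 in mouse 3, close to the size of the Gnb5 differences.

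**Figure D2:**
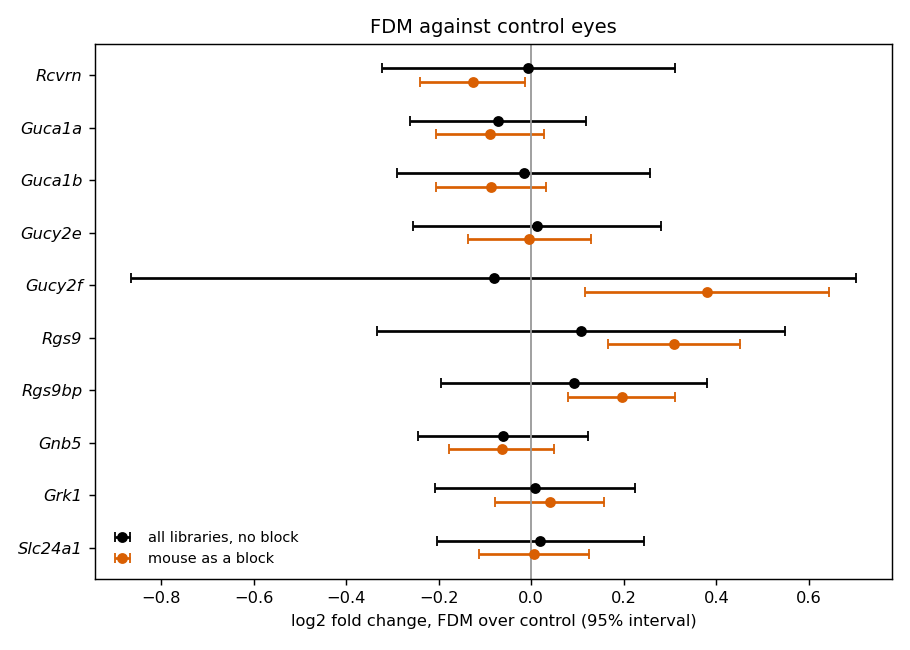
Log2 fold change (FDM over control) of the 10 genes with its 95% interval, from edgeR over all 5 libraries without a block (black) and with the mouse as a block (orange). All 10 black intervals include 0; the orange intervals of Gucy2f, Rgs9 and Rgs9bp lie above 0 and that of Rcvrn below it, with no adjusted p under 0.05.

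Without a block, the genes that passed depended on the library without a partner, and with a block they depended on how the eyes were paired. With Control 2 left out and no block, the 3 genes that were higher in the block fit, Rgs9 (log2 fold change 0.33, unadjusted p = 0.0190), Rgs9bp (0.21, unadjusted p = 0.0400) and Gucy2f (0.37, unadjusted p = 0.0485), passed the unadjusted threshold in edgeR, against 3.11% of genes tested, each with an adjusted p of 0.998. This fit without a block held only the paired libraries that the block fit compares. Its log2 fold changes therefore repeat that comparison and do not add to it. In the block fit without Control 2, those 3 genes passed, against 6.94% of all genes, and Rcvrn did not (unadjusted p = 0.0528 from edgeR). A mouse with a single library adds nothing to the comparison between eyes in a block fit. Leaving out Control 2 there could change only the scaling and the estimated spread, so this fit is no check on that library. The block fit with the authors' factors as offsets called the same 4 genes as the block alone, against 7.31%. With the pairs set by the label numbers instead, 0 of 10 genes passed, against 2.52% of all genes. The difference between FDM 3 and its partner then became -0.39 for Rgs9, -0.18 for Rgs9bp, -0.73 for Gucy2f and 0.24 for Rcvrn on the log2 scale, each the reverse of its sign within mouse 3. Set against the refractive errors in the labels, the spread of the myopic shift given in the paper can be met with the pairing by mouse number and not with that by label number. The block leaves 1 residual degree of freedom for each gene, so the spread behind its p-values was largely borrowed from the other genes.

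Most of the 10 genes varied more over the 3 control eyes than between the eyes of either animal. A range over 3 libraries from different mice tends to exceed a difference within a pair for any gene. The share of all genes for which this held was not computed. The highest control exceeded the lowest by 2.51-fold for Gucy2f, 1.5-fold for Rgs9, 1.35-fold for Rcvrn and 1.28-fold for Rgs9bp. It exceeded it by 1.26-fold for Guca1b, 1.24-fold for Gucy2e, 1.14-fold for Slc24a1, 1.11-fold for Grk1, 1.07-fold for Guca1a and 1.02-fold for Gnb5. The genes that passed in the block fit were thus the 4 with the widest spread among all 3 controls. For Rgs9, Rcvrn and Rgs9bp that spread came mostly from Control 2, which does not enter the comparison between eyes. In Control 1 and 3, Rgs9 had 326 and 311 CPM, Rcvrn 969 and 920, and Rgs9bp 947 and 868. Gucy2f, at 33.4 and 47.0, and Gucy2e, which did not pass, at 927 and 746, lay further apart in ratio. Over all 3 controls the median of highest over lowest was 1.25-fold for the members and 1.17-fold for the 6943 genes above 30 CPM, whose middle 90% ran from 1.04 to 1.48. Of the 10 members, 6 differed by over 1.2-fold, against 42.1% of those genes. Control 2 was the highest of the 5 libraries for 3 members (Gucy2f, Rgs9 and Rgs9bp), against 35.9% of those genes, and the lowest for Rcvrn and Guca1b.

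**Figure D3:**
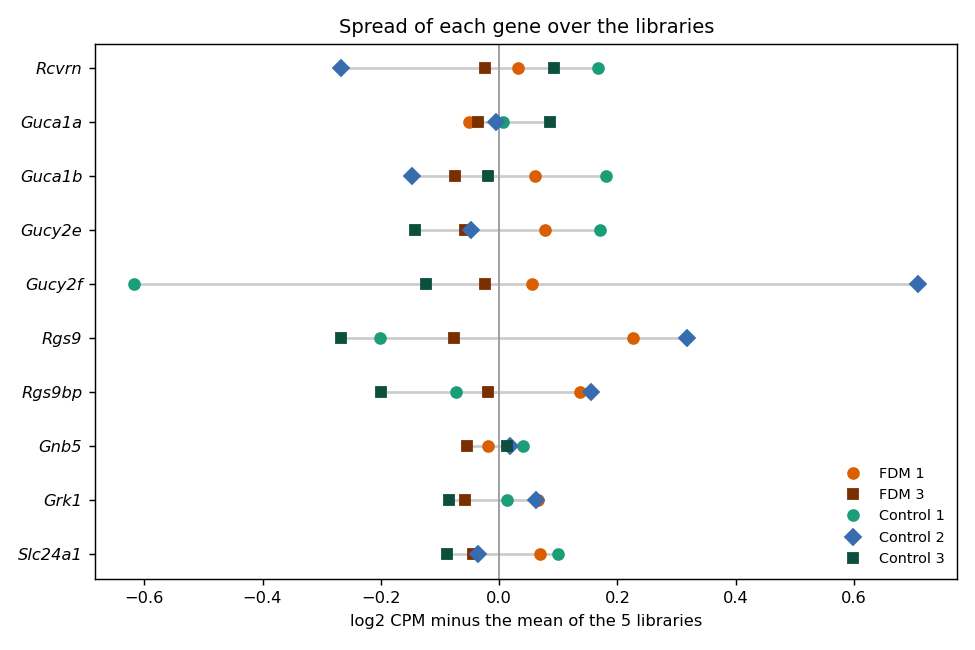
Log2 CPM of each gene in each library minus the mean of that gene over the 5 libraries, with a grey line from the lowest to the highest library. Control 2 (blue diamonds) is at the right end for Gucy2f, Rgs9 and Rgs9bp and at the left end for Rcvrn and Guca1b, while Gnb5 and Guca1a have the shortest lines.

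Control 2 also differed from the other controls in a way that followed transcript length. Protein-coding genes were ranked by their longest annotated transcript. The median log2 difference between Control 2 and Control 1 was -0.10 in the shortest quartile, -0.06 and 0.01 in the middle quartiles and 0.20 in the longest, and against Control 3 it ran from -0.14 to 0.18. Of the 4 members in the shortest quartile, a pair were low in Control 2, Rcvrn (1040 bases) by -0.44 and Guca1b (1668 bases) by -0.33 against Control 1, but the still shorter Guca1a (873 bases) differed by -0.01 and Gnb5 (2105 bases) by -0.02. Among long members Gucy2f (8122 bases) differed by 1.33 and Rgs9bp (6590 bases) by 0.23, while Grk1 (7431 bases) differed by 0.05, Slc24a1 (5213 bases) by -0.14 and Gucy2e, the longest at 8331 bases, by -0.22. Rgs9, of 3464 bases, differed by 0.52 in a quartile whose median was -0.06. The union of all its exons is 6390 bases, so its place by length may depend on the measure used. The part of transcript length in these differences was not tested beyond these medians.

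**Figure D4:**
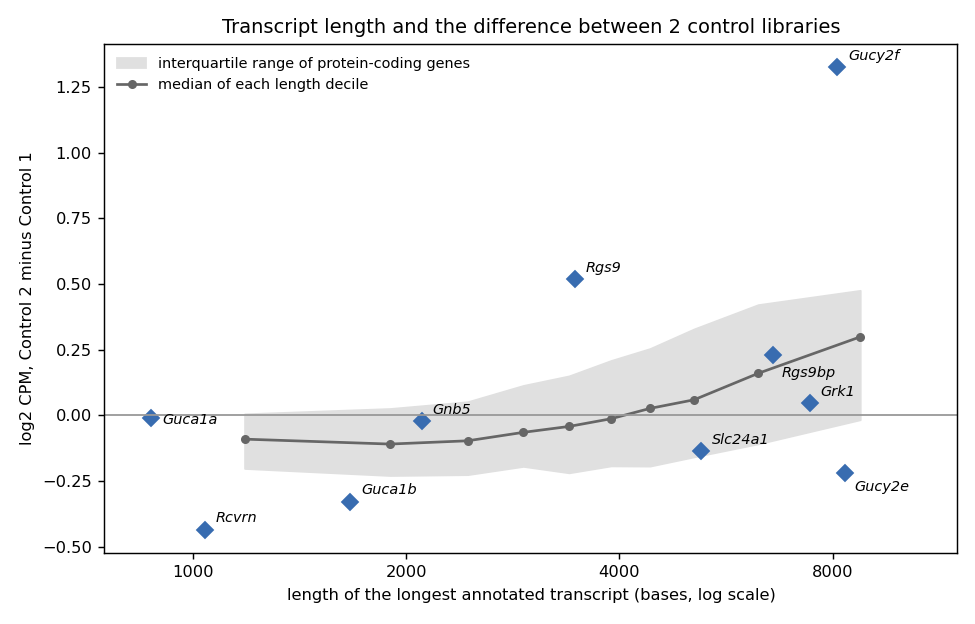
Log2 CPM of Control 2 minus Control 1 for the 10 genes (blue diamonds) against the length of the longest annotated transcript (bases, log scale), over the median of each length decile of protein-coding genes (line) and the interquartile range of each decile (grey). The line climbs with length; Gucy2f and Rgs9 lie above the grey band at their length, and Guca1b and Gucy2e lie below it, as does Rcvrn just short of where the band begins.

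Levels were compared between genes after division by the length of the longest transcript, scaled to the same total in each library (as in TPM). On this scale Guca1b (2598 ± 202), Rcvrn (2280 ± 214) and Guca1a (2204 ± 59.4) were highest (mean ± SD, n = 5 libraries), and their ranges over libraries overlapped in that order. Gnb5 (987 ± 25.2) and Grk1 (934 ± 58.4) came next and overlapped, followed by Slc24a1 (731 ± 42.3), which overlapped neither neighbour. Rgs9bp (417 ± 50.5), Rgs9 (301 ± 60.8) and Gucy2e (271 ± 23.3) each overlapped the next, and Gucy2f stood apart at 18.1 ± 6.6. The calcium sensors thus had the highest transcript levels of the 10 genes. Dividing by the union of all exons instead moved Rcvrn to rank 1 at 2878, Guca1b to rank 3 at 2241, Gnb5 to rank 6 at 842 and Rgs9 to rank 9 at 206, with Gucy2f still last at 22.9.

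In the rest of the cascade the list medians lay near 0. Among 10 other shutoff and feedback genes (arrestins, phosducin, Rd3, Ppef2, further exchangers and calmodulins), 0 passed the unadjusted threshold in edgeR without the block, 3 had a positive log2 fold change and 7 a negative one, and the median was -0.03. The most abundant of them, Sag, the rod arrestin, had 4688 and 4254 CPM in FDM 1 and 3, against 4973, 4768 and 5065 in Control 1, 2 and 3. Both FDM libraries were thus below all controls, with a log2 fold change of -0.14 with an SE of 0.09 (edgeR unadjusted p = 0.157). The groups did not overlap for 10.6% of all genes tested. With the mouse as a block Sag (-0.17, unadjusted p = 0.0203, adjusted p = 0.619) and Rd3 (-0.12, unadjusted p = 0.0373, adjusted p = 0.666), a protein that inhibits the cyclases, were lower in edgeR. These were 2 of the 10, against 3.67% of all genes tested that were lower in that fit.

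Of 8 genes of the rod activation cascade, 0 passed without the block, and the median log2 fold change was -0.02, and -0.06 with it. With the block the transducin subunits Gnat1 (-0.15, unadjusted p = 0.0247) and Gngt1 (-0.12, unadjusted p = 0.0497) and the phosphodiesterase subunit Pde6g (-0.13, unadjusted p = 0.0382) were lower at the unadjusted threshold in edgeR, with adjusted p from 0.635 to 0.689. These were 3 of the 8, against 3.67% of all genes tested that were lower in that fit. The rod genes that did not pass also had values below 0 with the block, from -0.06 for Pde6b to -0.02 for Cnga1. For the 9 cone activation genes the median without the block was 0.02 with 0 calls, and it turned to -0.05 with the block. Opn1sw, the most abundant, had a log2 fold change of -0.15 without the block (unadjusted p = 0.330 from edgeR). With the block Gngt2 was lower (-0.15, unadjusted p = 0.0459) and Pde6c higher (0.16, unadjusted p = 0.0235) in edgeR, with adjusted p of 0.683 and 0.627. Each was 1 of the 9, against 3.67% of all genes tested lower and 3.57% higher in that fit.

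The other R7 RGS genes, relatives of Rgs9 and of its anchor that serve other neurons, gave 0 of 4 calls in either fit, with medians of 0.04 without and 0.05 with the block. The median without the block turned to -0.04 in limma on the normalized signal and to -0.05 with the authors' factors as offsets. Their most abundant gene, Rgs11 of the ON bipolar cells, had 111 and 118 CPM in FDM 1 and 3, against 118, 100.1 and 102 in Control 1, 2 and 3. Control 2 was its lowest library, as it was for Rgs6 at 55.3 CPM. Rgs7 (51.8 CPM) and Rgs7bp (46.5 CPM), a relative of the anchor, were highest in Control 2, as Rgs9 and Rgs9bp were. Of 5 photoreceptor transcription factors, 0 passed in either fit, with medians of -0.04 and -0.06, and Nrl, the most abundant, differed by -0.04 without the block. In the lists of bipolar, Muller glia, amacrine, horizontal and ganglion cell markers, 0 of 24 genes passed without the block. With it Aqp4 (0.20, unadjusted p = 0.0196, adjusted p = 0.619) and Onecut1 (0.62, unadjusted p = 0.00717, adjusted p = 0.508) were higher in edgeR. They were the only calls among the 24, against 7.23% of all genes tested in that fit.

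Markers of tissue next to the retina differed far more than the 10 genes. Of 10 pigment epithelium genes, 5 were lower in FDM eyes without the block (Rpe65, Ttr, Rgr, Lrat and Kcnj13), with a median log2 fold change of -1.71 over the list and unadjusted p from 0.00409 to 0.0160 in edgeR. Their high libraries were Control 2 and Control 3. All 7 lens genes tested were higher (Cryaa, Cryba1, Crybb2, Crygs, Bfsp1, Bfsp2 and Mip), with a median of 6.42, all through FDM 3. Without FDM 3 as with it, 0 of the 10 shutoff and feedback genes passed, against 1.15% of all genes without it. A single FDM library then remained, so this count does not bear on the part of lens RNA. Of 4 muscle genes tested and 5 blood genes, 0 passed without the block. With it 7 pigment epithelium genes, 4 muscle genes and 1 blood gene were lower and the 7 lens genes higher at the unadjusted threshold. Over all genes tested, 3.67% were lower and 3.57% higher in that fit. The pigment epithelium and muscle differences lay mainly between the eyes of mouse 3. Over the 10 pigment epithelium genes the sum was 77.4 CPM in FDM 1 and 81.2 in Control 1. It was 70.1 in FDM 3 and 310 in Control 3. For the 5 muscle genes it was 9.55 CPM in FDM 1 and 9.24 in Control 1, against 10.7 in FDM 3 and 55.8 in Control 3.

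**Figure D5:**
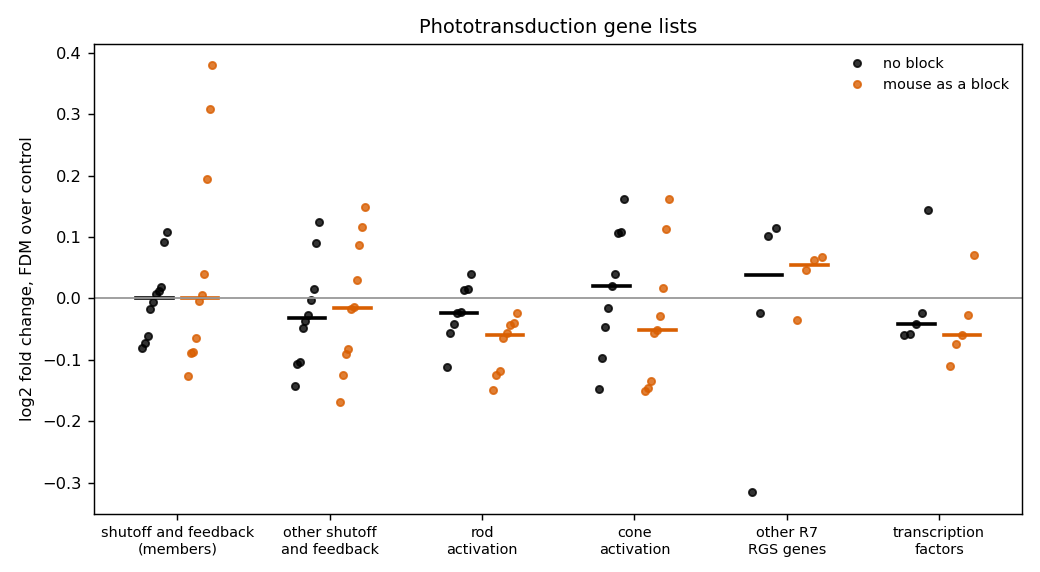
Log2 fold change (FDM over control) of each gene in 6 lists of the light response, without a block (black) and with the mouse as a block (orange), with bars at the medians. Without the block the values lie on both sides of 0 in every list. With the block all rod activation genes lie below 0, and the highest orange points of the first list are Gucy2f, Rgs9 and Rgs9bp.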

How the data were processed

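Groups were taken from the sample labels and the pairing of eyes from the mouse numbers of the paper. The authors prepared poly-A libraries without strand, trimmed reads with Trimmomatic 0.39 and estimated transcripts with Salmon 1.10.1 (GRCm38). They deposited the estimated counts per gene as whole numbers, and a normalized signal made with DESeq2 using a factor for each gene and library. The 17432 genes whose counts exceeded 10 in 2 or more libraries were tested with edgeR 4.0.16 (TMM, quasi-likelihood, no covariate, R 4.3.3). The threshold was an unadjusted p of 0.05, as in the study, with Benjamini-Hochberg values beside it. Alternatives used DESeq2 1.42.0, limma 3.58.1 (pseudocounts 1 and 0.1 on the normalized signal), other factors and filters, blocks, and each library left out. After the data had been seen, the authors' factors as offsets and a block without Control 2 were added. Across genes, deviations from group means correlated at 0.258 for FDM 1 with Control 1, 0.125 for FDM 3 with Control 3 and 0.155 for FDM 3 with Control 2. Deviations within a group sum to 0, so these values are tied to each other and do not decide the pairing. Coordinates and lengths are from GENCODE M21, which held 33586 of the gene identifiers. Of the rows, 6 had no gene name. Scripts were tested on simulated counts. The members and lists were chosen with earlier results of these data known. The 10 members are named in full, and of each other list its most abundant gene and those past the unadjusted threshold; genes called with the block were named after their values were seen. No pair of libraries held identical values. A gene of the rod list is not reported here.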

Additional observations from a re-analysis of the deposited data

How the results depend on the processing

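No setting gave any of the 10 genes an adjusted p under 0.05, and Guca1a, Gnb5 (lower) and Rgs9bp (higher) kept their direction in all 18 settings. The settings share the same 5 libraries. For Guca1a and Gnb5 both FDM libraries were below all controls, so leaving 1 library out could hardly turn their sign. The number of the 10 genes past the unadjusted threshold was 0 without a block, 4 with the replicate block by mouse, 4 with that block and the authors' factors as offsets, 3 with that block without Control 2, and 0 to 3 when each library was left out. Over all genes, 281 passed at the unadjusted threshold; the number was 172 in DESeq2, 498 with a filter of at least 1 count, 1261 with the block by mouse, 439 with the block by label number, 1274 with block and offsets, 1210 with the block without Control 2, and 146 to 946 when each library was left out. After adjustment 0 genes passed; the number was 3 in DESeq2, 54 with the block by mouse, 128 by label number, 80 with block and offsets, 53 with the block without Control 2, and 0 to 16 when each library was left out. Log2 fold changes near 0 turned sign. Rcvrn became 0.0009 in DESeq2 and with its size factors, 0.0059 with upper-quartile factors, 0.0063 with library totals, 0.0026 in limma at either pseudocount and 0.0533 with the block by label number. Gucy2f became 0.06 and 0.0601 in limma, 0.3798 with the block by mouse, 0.404 with block and offsets and 0.3898 with the block without Control 2. Gucy2e became -0.0044 with the block by mouse and -0.0517 by label number, where Grk1 was -0.033 and Slc24a1 -0.0195. With each library left out, Rcvrn ran from -0.1164 to 0.0808, Guca1b from -0.0868 to 0.0776, Gucy2e from -0.0571 to 0.1074, Gucy2f from -0.3347 to 0.3722, Rgs9 from -0.0521 (without FDM 1) to 0.3274 (without Control 2), Grk1 from -0.056 to 0.0677 and Slc24a1 from -0.0392 to 0.0764. Where 1 FDM library remained it was assumed to vary like the controls. On the normalized signal the Gnb5 differences between eyes were -0.02 in mouse 1 and -0.03 in mouse 3. The cause of these changes was not tested.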

Other observations

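Ratios between members that work together were compared within each library, on the scale per length. Gucy2e exceeded Gucy2f 15.9-fold and 15.3-fold in FDM 1 and 3, against 27.1, 9.29 and 15.5 in Control 1, 2 and 3. The control eyes lay on both sides of the deprived eyes, which were close to Control 3. The ratio of Rgs9bp, the anchor, to Rgs9 was 1.32 and 1.46 in FDM 1 and 3, against 1.53, 1.25 and 1.47 in Control 1, 2 and 3. In both mice it was lower in the FDM eye, by little in mouse 3. The ratio of Gnb5 to Rgs9 was 2.81 and 3.39 in FDM 1 and 3, against 3.95, 2.71 and 4.05 in Control 1, 2 and 3, so it was lower in the FDM eye of both mice and lowest in Control 2.

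The ratio of Gnat1, the rod transducin that the complex acts on, to Rgs9 was 42.7 and 48.2 in FDM 1 and 3, against 62.0, 31.8 and 62.7 in Control 1, 2 and 3. Both FDM libraries were below the fellow eye of their mouse and above Control 2. The ratio of Sag to Grk1, which act on the same pigment, was 2.78 and 2.75 in FDM 1 and 3, against 3.06, 2.84 and 3.33 in Control 1, 2 and 3, with both FDM libraries below all controls. Guca1a to Guca1b stayed between 0.753 in Control 1 and 0.938 in Control 2, and Slc24a1 to the rod channel subunit Cnga1 between 0.814 in Control 2 and 0.943 in FDM 1. These ratios were chosen after levels had been seen and were not tested. The share of gene pairs whose ratio separates FDM from control libraries, as Sag to Grk1 did, was not computed. Of single genes tested, 10.6% separated the groups, Sag among them.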
